A study of Mus musculus with 20 samples.

Results

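The TAM receptors are the 3 receptor tyrosine kinases Tyro3, Axl and Mertk, and Gas6 and Pros1 are the 2 ligands that bridge them to dying cells. These 5 genes were taken by symbol from the 54838 genes counted in microglia, the resident macrophages of the brain. All 5 passed the filter on low counts, which left 12680 genes for testing. At postnatal day 40, 1000 cells of the frontal cortex of each mouse were sorted as high for CD11b and low for CD45 before mRNA sequencing. The 20 libraries carried 5 genotype labels: 4 were labelled WT, 5 C4-/-, 5 hC4A/-, 4 hC4B/- and 2 hC4A/A. C4 is a complement component encoded by C4b in the mouse. The series describes humanized mice with sequence of the human C4A and C4B genes. The labels used here name no sex, transgene promoter or strain, and do not say whether the hC4A/-, hC4B/- and hC4A/A mice also lacked mouse C4b. Each library was read as 1 mouse, and nothing in the labels says whether mice shared a litter, so p-values measure the spread between these libraries.

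A phagocyte recognises a dying cell or a tagged membrane by the phosphatidylserine on its surface. Gas6 and protein S, the product of Pros1, bind this lipid through a domain that is gamma-carboxylated with the help of vitamin K, and bind a TAM receptor with the other end. Receptor activation drives engulfment and dampens cytokine and interferon signalling. Mertk is the TAM receptor typical of resting microglia and Axl is usually induced in inflammation, whereas Tyro3 is best known from neurons. Gas6 is a ligand of all of the TAM receptors, and protein S acts on Mertk and Tyro3. The comparisons below ask whether transcripts of this system differed with the C4 genotype.

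The genes lie on separate loci of build GRCm38. Mertk (ENSMUSG00000014361) spans chr2:128698956-128802894 on the plus strand with 4.34 kb of merged exons. Axl (ENSMUSG00000002602) spans chr7:25757273-25788705 on the minus strand with 5.03 kb of exons. Tyro3 (ENSMUSG00000027298) spans chr2:119797733-119818104 on the plus strand with 6.2 kb of exons. Gas6 (ENSMUSG00000031451) spans chr8:13465374-13494490 on the minus strand with 2.55 kb of exons. Pros1 (ENSMUSG00000022912) spans chr16:62854307-62929346 on the plus strand with 4.09 kb of exons. Gas6 shares 34 exon bases with Tmem255b on the opposite strand, which held 11 counts over the 20 libraries. Mertk overlaps Gm14011 and Gm23172 but shares 0 exon bases with either.

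Each library held 855099 to 2735181 gene counts, and Gm10800 alone took 9.61% to 65.9% of them. In 4 libraries, called broad here, 27178 to 30907 genes had at least 1 count, against 11348 to 23912 genes in the other 16. Of the hC4B/- libraries, replicates 2 and 3 were broad, as were replicate 3 of C4-/- and replicate 2 of hC4A/A. Libraries labelled WT or hC4A/- included none of them. All 12 microglia markers were detected in every library, with a summed level of 4316 to 10108 CPM, that is counts scaled to a library of 1000000. The deposited names of the 4 WT libraries follow another pattern than those of the other 16, so for WT the genotype and what this naming marks cannot be told apart. C4b (ENSMUSG00000073418, chr17:34728380-34743882) did not follow the WT and C4-/- labels. The libraries labelled WT held 0, 0, 2 and 0 C4b counts, while those labelled C4-/- held 7 to 157 and all libraries of the other genotypes held 4 to 428. The highest C4b levels were in the 4 broad libraries, at 103 to 351 CPM, against 0 to 59.8 CPM in the other 16. The deleted stretch of C4b is not given in the labels, so these counts cannot tell a transcribed remnant from an intact gene, and every direction below rests on the labels as deposited.

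Mertk was the TAM receptor of these cells. Per length of exon its mean level over the 20 libraries was 34.8 CPM per kb, above 94.9% of the 12680 genes tested. Pros1 followed at 25 CPM per kb, above 92.6% of genes, and Gas6 at 9.32 CPM per kb, above 80.7%. Axl and Tyro3 sat near the bottom, at 0.65 and 0.531 CPM per kb, above 16% and 12.6% of genes. Mertk had the highest level per length in 10 libraries, Pros1 in 9 and Gas6 in 1, hC4B/- replicate 1. The order of Mertk and Pros1 was thus not fixed across libraries, whereas Axl and Tyro3 stayed below Mertk in all 20.

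**Figure D1:**
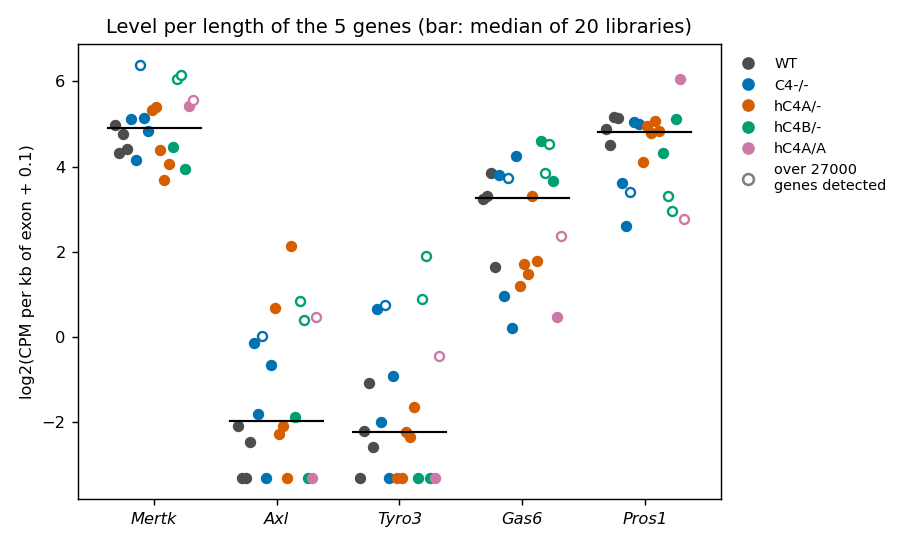
Level of each gene per length in the 20 libraries, as log2 of CPM per kb of exon plus a pseudocount of 0.1, coloured by genotype label; open symbols are the 4 broad libraries and bars are medians. Mertk and Pros1 lie highest, Gas6 spans a wider range, and Axl and Tyro3 lie lowest, with the lowest symbols at 0 counts.

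Mertk was found in every library at 82 counts or more. Its level was 137, 85.4, 117 and 91.8 CPM in the libraries labelled WT. It was 150, 76.5, 364, 152 and 124 CPM in those labelled C4-/-, and 173, 184, 90.6, 55 and 72.5 CPM in hC4A/-. The highest C4-/- library, replicate 3, is a broad one and the ranges of these 3 genotypes overlap. In hC4B/- Mertk was at 94.8, 288, 310 and 66.5 CPM, and in hC4A/A at 185 and 205 CPM. Both of the high hC4B/- values are from broad libraries, and the other 2 lie within the range of hC4A/-.

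The order of the Mertk means was hC4A/A (195 ± 14.1 CPM, SD, n = 2), hC4B/- (190 ± 127, n = 4), C4-/- (173 ± 111, n = 5), hC4A/- (115 ± 59.3, n = 5) and WT (108 ± 23.9, n = 4). Neighbours in this order did not differ beyond their spread, and RLE scaling, another way to scale library sizes, put hC4B/- (242 CPM) before hC4A/A (231 CPM). The log2 fold change against WT was 0.68 ± 0.65 (SE) for C4-/-, 0.09 ± 0.64 for hC4A/-, 0.81 ± 0.68 for hC4B/- and 0.85 ± 0.81 for hC4A/A. The C4-/- value was 0.05 without C4-/- replicate 3, and the hC4B/- value was -0.28 without the 4 broad libraries. None passed edgeR's quasi-likelihood test with Benjamini-Hochberg adjustment over all genes, with adjusted p of 0.761, 1, 0.581 and 0.789. No gene at all passed in these 4 comparisons (0% of genes tested in each).

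In 2 comparisons the Mertk libraries did not overlap, although neither passed the test. Both hC4A/A libraries lay above all 4 WT libraries, where 11.2% of genes tested did not overlap and 7.41% were higher without overlap. Both also lay above all 5 hC4A/- libraries, with a log2 fold change of 0.76 ± 0.78 (adjusted p = 0.78 by edgeR). In that comparison 9.17% of genes did not overlap and 6.47% were higher without overlap, so a group of 2 libraries separated from others often. The hC4A/A library at 205 CPM is broad, and the other, at 185 CPM, is next to the highest hC4A/- value of 184 CPM.

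Mertk level differed between the broad and the other libraries. The 4 broad libraries held 205 to 364 CPM (median 299) and the other 16 held 55 to 185 CPM (median 106), with no overlap. Among all genes tested, 9.47% were higher in every broad library than in every other. In bulk samples a change in the number of cells of a type and a change in RNA per cell cannot be told apart. The part of the library class in the genotype means of Mertk was not tested, beyond the values without these libraries.

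**Figure D2:**
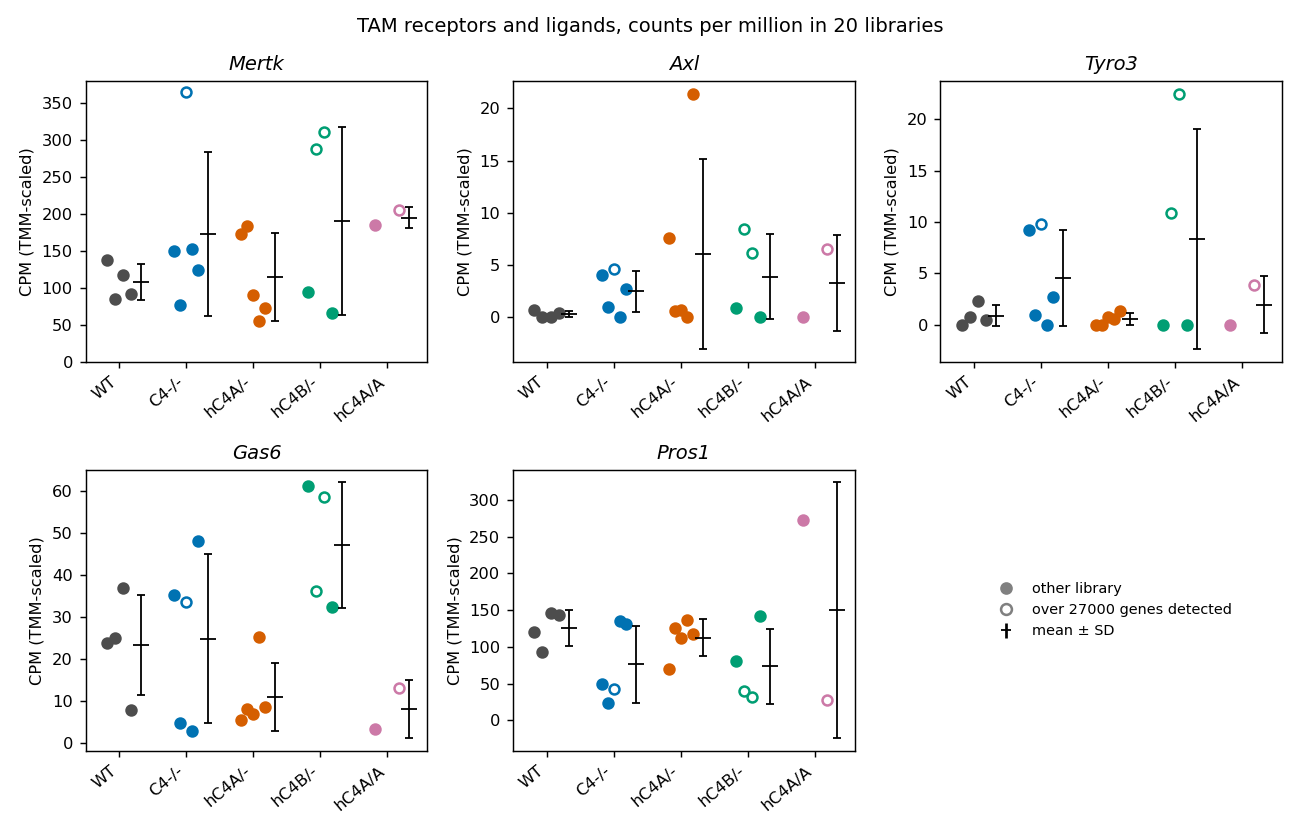
CPM of the 5 genes in each library by genotype label, with mean ± SD at the right of each group; open symbols are the 4 broad libraries and each panel has its own linear axis. The broad libraries are the highest Mertk values of their genotypes, and the hC4A/- and hC4B/- libraries do not overlap for Gas6.

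Axl, which binds Gas6 with high affinity, was close to absent. The libraries labelled WT held 2, 0, 0 and 1 Axl counts, those labelled C4-/- held 7, 1, 7, 0 and 4, and hC4B/- held 2, 7, 9 and 0. The hC4A/A libraries held 0 and 5 counts. In hC4A/- the counts were 11, 1, 1, 0 and 63, so 1 library, replicate 5, stood apart at 21.4 CPM. A count of 0 allowed a level of up to 0.967 to 2.3 CPM in the libraries concerned, at 3 counts per library. Group means ran from hC4A/- (6.05 CPM) through hC4B/- (3.86), hC4A/A (3.24) and C4-/- (2.44) to WT (0.268), and neighbouring ranges overlap. This order held with TMM scaling only, since RLE scaling put hC4B/- at 5.15, hC4A/A at 4.93 and hC4A/- at 4.84 CPM.

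Axl had an unadjusted p under 0.05 in hC4A/- against WT alone, where its log2 fold change was 4.02 ± 1.70 and edgeR's adjusted p was 0.574. Of all genes tested, 7.51% had an unadjusted p under 0.05 in this comparison. The fitted fold change depends on the prior count at such levels. Summed over each group, 76 counts in hC4A/- against 3 in WT gave a ratio of 22 per scaled library size, with a 95% counting interval of 7.24 to 109. Without hC4A/- replicate 5 the ratio was 5.47 (1.5 to 29.9), from 13 counts against 3, and the fitted log2 fold change was 2.60. The interval covers counting error only, and the groups overlap.

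Replicate 5 of hC4A/- also held the highest summed level of the 9 neuron markers, at 116 CPM with 5 of 9 detected, in a group range of 2.69 to 116 CPM. One gene, Snap25, carried this list, with up to 333 counts in an hC4A/- library against at most 4 for any other neuron marker, and Syt1 and Gad1 were at 0 in all 5. The 8 border macrophage markers of replicate 5 summed to 27.2 CPM with 3 detected, within the 12.9 to 99.5 CPM of its group. Its microglia sum (9469 CPM) and endothelial and mural sum (51.4 CPM, 7 of 10 detected) were the highest of hC4A/-. Its astrocyte and oligodendrocyte lineage sums, 435 and 25.5 CPM with 7 of 8 and 7 of 9 detected, were within the group ranges. It was the deepest library, at 2735181 gene counts. It had 18753 genes detected, against 11348 to 13084 in the rest of hC4A/-. The part of other cells or of depth in its Axl counts was not tested.

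Tyro3 was as scarce as Axl and concentrated in a few libraries. The libraries labelled WT held 0, 1, 3 and 1 counts, those labelled C4-/- held 16, 1, 15, 0 and 4, and hC4A/- held 0, 0, 1, 1 and 4. The hC4B/- libraries held 0, 9, 33 and 0 counts and the hC4A/A libraries 0 and 3. Of the 4 broad libraries, all had at least 3 Tyro3 counts and a level of 3.89 to 22.5 CPM. The other 16 libraries lay at 0 to 9.2 CPM (median 0.496), so the classes overlap. A Tyro3 count of 0 allowed up to 0.967 to 2.19 CPM. The order of the means was hC4B/- (8.33 CPM), C4-/- (4.53), hC4A/A (1.94), WT (0.854) and hC4A/- (0.527), with overlapping neighbours.

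Tyro3 had one in hC4A/- against hC4B/- alone, with a log2 fold change of -3.74 ± 1.60 and an edgeR adjusted p of 0.256. This comparison had the most such genes, with 16.7% of all genes tested at an unadjusted p under 0.05. The sums were 6 counts against 42, a ratio of 0.0912 with a counting interval of 0.0317 to 0.216. All 42 hC4B/- counts came from the 2 broad libraries, and without the broad libraries hC4B/- held 0 counts and the fitted change turned to 3.22.

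Because Axl and Tyro3 were so low, Mertk made up most of the receptor transcripts. Per length, its share of the 3 receptors had a median of 98.7% and ran from 78.9% to 100%. The lowest share was that of hC4A/- replicate 5, where Mertk took 76.1% of the receptor counts (95% Clopper-Pearson interval 70.6% to 80.9%, 213 of 280). Every other library had a share of at least 93.7% per length. In 3 libraries, C4-/- replicate 4, hC4B/- replicate 4 and hC4A/A replicate 1, all receptor counts were Mertk.

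Pros1 encodes protein S, a plasma anticoagulant that also serves as a TAM ligand. It stood at 120, 93.2, 146 and 143 CPM in the libraries labelled WT and at 70.4, 126, 112, 137 and 117 CPM in hC4A/-. Libraries labelled C4-/- held 50, 24.2, 42.6, 135 and 131 CPM. They fell into a low and a high set, and the low set holds 1 broad library and 2 others. In hC4B/- Pros1 was at 80.7, 39.8, 31.3 and 142 CPM, of which 39.8 and 31.3 CPM are from broad libraries. The hC4A/A libraries differed most, at 273 CPM and, in the broad one, 27.2 CPM.

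The order of the Pros1 means was hC4A/A (150 ± 174 CPM, n = 2), WT (126 ± 24.7, n = 4), hC4A/- (112 ± 25.3, n = 5), C4-/- (76.7 ± 52.5, n = 5) and hC4B/- (73.4 ± 50.4, n = 4). Neighbouring ranges overlap, and RLE scaling put hC4B/- (82.5 CPM) before C4-/- (71.6 CPM). The log2 fold change against WT was -0.71 ± 0.68 for C4-/-, -0.16 ± 0.68 for hC4A/-, -0.77 ± 0.72 for hC4B/- and 0.26 ± 0.86 for hC4A/A. By edgeR the adjusted p was 0.76, 1, 0.621 and 0.947. Without the broad libraries the hC4B/- value was 0.05, and without hC4A/A replicate 1 the hC4A/A value was -2.14. These Pros1 differences are thus within the spread of the libraries.

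Pros1 ran opposite to Mertk across the library classes. The 4 broad libraries held 27.2 to 42.6 CPM of Pros1 and the other 16 held 24.2 to 273 CPM, which overlap through C4-/- replicate 2. The Mertk to Pros1 ratio per length was 6.83 to 9.33 in broad libraries, above the 0.379 to 2.97 (median 0.877) of the other 16. Over the 20 libraries the Spearman correlation of Mertk and Pros1 was -0.36, and over the other 16 it was 0.06. Both are descriptions of libraries that share depth and library class.

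**Figure D3:**
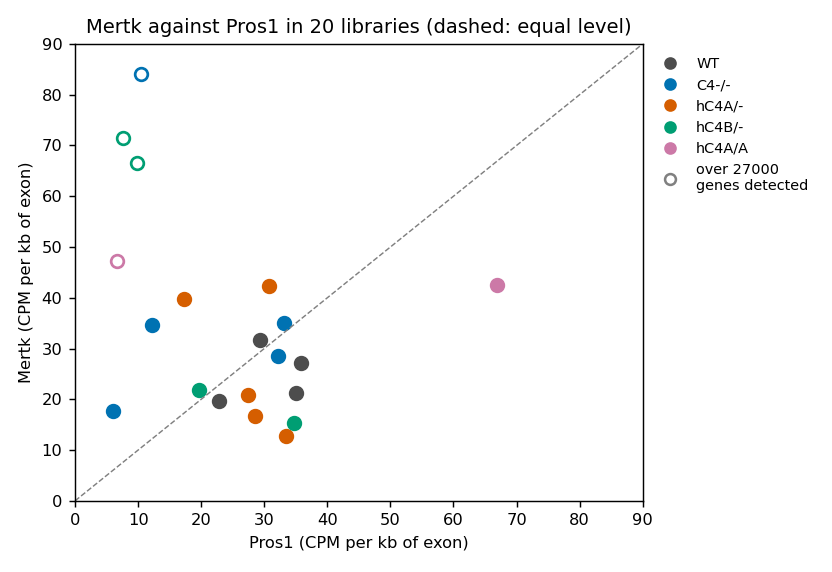
Mertk against Pros1 in CPM per kb of exon, 1 symbol per library, coloured by genotype label, with a dashed line of equal level. The 4 broad libraries (open) sit at the upper left with ratios of 6.83 to 9.33, and the other 16 scatter around the line.

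Gas6 gave the smallest adjusted p of the 5 genes, in hC4A/- against hC4B/-, although it did not pass the test either. It encodes the ligand shared by the TAM receptors. In hC4A/- it was at 5.52, 8.06, 6.87, 25.2 and 8.51 CPM, and in hC4B/- at 61.1, 36.2, 58.5 and 32.2 CPM. All 4 hC4B/- libraries lay above all 5 hC4A/- libraries, and the nearest pair was 25.2 and 32.2 CPM. Such separation was found for 2.49% of genes tested in this comparison, 1.41% being lower in hC4A/-.

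The Gas6 means were 10.8 ± 8.1 CPM (n = 5) in hC4A/- and 47 ± 14.9 CPM (n = 4) in hC4B/-, a log2 fold change of -2.11 ± 0.82 in hC4A/- against hC4B/-. The median over all genes was -0.14. The edgeR adjusted p was 0.239, the unadjusted p lay under 0.05, and adjusted p over the alternative settings and left-out libraries ran from 0.0826 to 0.741. Without the broad libraries, 2 of which are hC4B/-, the log2 fold change was -2.16 (edgeR adjusted p = 0.741). The remaining hC4B/- libraries held 61.1 and 32.2 CPM, still above every hC4A/- library.

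Markers of other cells were compared between the same libraries. The summed microglia markers spanned 5721 to 9469 CPM in hC4A/- and 5758 to 8948 CPM in hC4B/-. Border macrophage markers, 1 to 3 of 8 detected per hC4A/- library and 2 to 8 per hC4B/- library, summed to 12.9 to 99.5 and 21.1 to 46 CPM. Mrc1 made up most of that sum, at 40.2 CPM on average in hC4A/- and 28.5 CPM in hC4B/-. Cd163, Pf4, F13a1 and Ms4a7 were at 0 in all 5 hC4A/- libraries, and in 2, 2, 2 and 3 of the 4 hC4B/- libraries. Of the 8 border macrophage markers, the broad hC4B/- replicates 2 and 3 had 8 and 6 detected, and replicates 1 and 4 had 2 each. No hC4A/- library is broad. Endothelial and mural markers summed to 6.99 to 51.4 CPM with 2 to 7 of 10 detected, against 12.8 to 48.2 CPM with 3 to 9. Astrocyte markers summed to 294 to 523 CPM in hC4A/- with 3 to 7 of 8 detected, and to 57.8 to 296 CPM in hC4B/- with 5 to 8. Slc1a3 alone carried the astrocyte sum, at 413 CPM on average in hC4A/- and 122 CPM in hC4B/-, whereas the low Gfap, Aqp4, Aldh1l1, Aldoc and Atp1b2 had higher means in hC4B/-. Oligodendrocyte lineage markers summed to 8.24 to 32.2 CPM in hC4A/- (median 15.9, 3 to 7 of 9 detected). In hC4B/- they summed to 16.1 to 83.2 CPM (median 45.8, 4 to 7 detected), with overlap. The broad hC4B/- libraries held sums of 83.2 and 53.1 CPM, and the others 38.4 and 16.1 CPM. Gas6 was highest, at 61.1 CPM, in an hC4B/- library that is not broad. In this marker list Mbp had means of 3.42 and 13.8 CPM and Cspg4 of 0.587 and 11.7 CPM, and Mog and Cldn11 were at 0 in all hC4A/- libraries. Monocyte markers summed to 2.15 to 44.6 CPM in hC4A/- (1 to 5 of 6 detected) and 14.6 to 27.7 CPM in hC4B/- (3 to 6). Neutrophil markers summed to 0.537 to 114 CPM (1 to 6 of 8) and 0 to 176 CPM (0 to 8), and neuron markers to 2.69 to 116 CPM (1 to 5 of 9) and 28.5 to 43.4 CPM (2 to 8). Like the oligodendrocyte lineage median, that of border macrophage markers was higher in hC4B/- (39.3 against 29.5 CPM in hC4A/-). So were those of monocyte (20.7 against 12.3 CPM) and endothelial and mural markers (23.1 against 12.4 CPM). Medians of the astrocyte, neutrophil, neuron and microglia sums were lower in hC4B/-. All of these ranges overlap. The part of these cells in the Gas6 values was not tested.

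Libraries labelled WT held 23.7, 24.9, 36.8 and 7.72 CPM of Gas6, and those labelled C4-/- held 35.1, 4.66, 33.4, 2.69 and 47.9 CPM. The hC4A/A libraries held 3.22 and 13 CPM. In the order of means hC4B/- came first, then C4-/- (24.8 ± 20.1 CPM, n = 5), WT (23.3 ± 11.9, n = 4), hC4A/- and hC4A/A (8.09 ± 6.88, n = 2). Neighbouring ranges overlap throughout. With RLE scaling hC4A/A (11.2 CPM) came before hC4A/- (10.3 CPM). Gas6 in hC4A/A was not compared with hC4B/-.

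Against WT, the Gas6 log2 fold change was 0.09 ± 0.81 for C4-/-, -1.10 ± 0.81 for hC4A/-, 1.02 ± 0.85 for hC4B/- and -1.57 ± 1.15 for hC4A/A. The edgeR adjusted p was 0.983, 0.907, 0.581 and 0.714. Against C4-/-, the Gas6 log2 fold change was -1.19 ± 0.77 for hC4A/-, 0.92 ± 0.80 for hC4B/- and -1.67 ± 1.13 for hC4A/A, with edgeR adjusted p of 0.561, 0.99 and 1. The values against WT and C4-/- share the hC4A/-, hC4B/- and hC4A/A libraries, so their like signs are not independent. The hC4A/A value against WT was -0.75 without hC4A/A replicate 1.

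Set against C4-/-, the log2 fold change of Mertk was -0.59 ± 0.61 for hC4A/-, 0.13 ± 0.64 for hC4B/- and 0.17 ± 0.80 for hC4A/A. Pros1 differed by 0.55 ± 0.64, -0.06 ± 0.68 and 0.98 ± 0.81 in the same order. None passed (edgeR adjusted p of 0.74 to 1), and 0% of genes tested passed in any of the 3. In hC4A/- against hC4B/-, Mertk was at -0.72 ± 0.64 and Pros1 at 0.61 ± 0.69 (edgeR adjusted p = 0.589 and 0.683). Both turned without the broad libraries, to 0.46 and -0.14. In hC4A/A against hC4A/-, Gas6 was at -0.48 ± 1.07 and Pros1 at 0.43 ± 0.83 (edgeR adjusted p = 0.917 and 0.9).

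**Figure D4:**
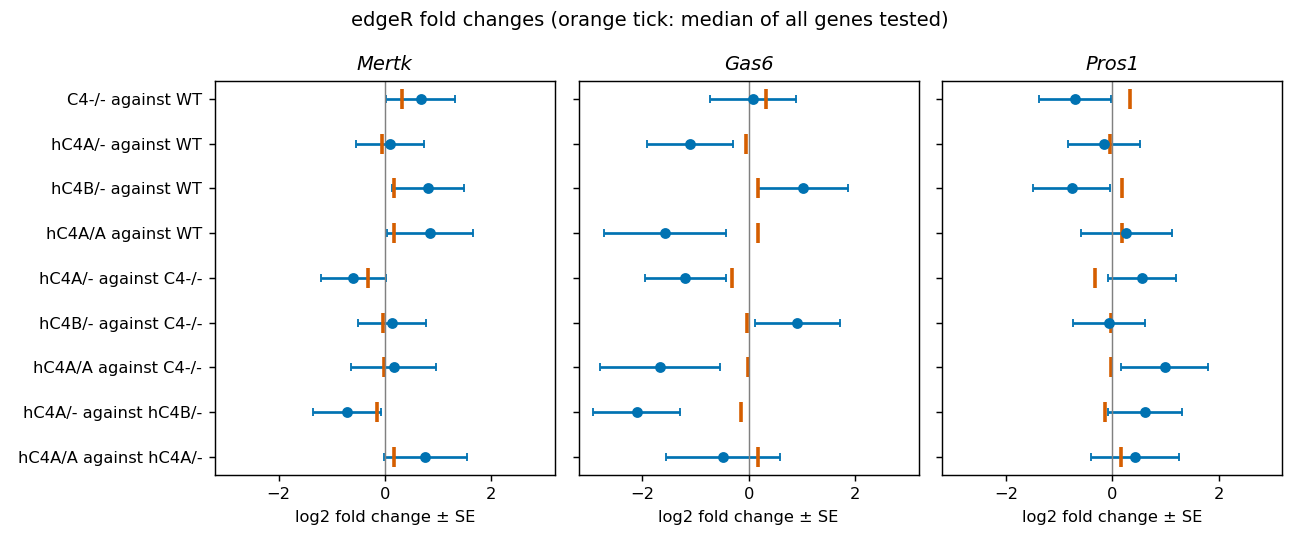
Log2 fold change ± SE of Mertk, Gas6 and Pros1 in the 9 comparisons from edgeR, with the median of all genes tested as an orange tick. The Gas6 value of hC4A/- against hC4B/-, at -2.11 ± 0.82, lies farthest from its tick, and no value passed the test.

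Over the 5 genes and 9 comparisons, 0 of 45 tests passed at an adjusted p of 0.05 by edgeR, where 0% of all genes tested passed in each comparison. An unadjusted p under 0.05 was found in 3 of 45, those of Axl, Tyro3 and Gas6 given above. The share of all genes at that level was 8.55% for C4-/- against WT, 13.1% for hC4B/- and 8.41% for hC4A/A against WT. It was 10.7%, 4.52% and 2.17% for hC4A/-, hC4B/- and hC4A/A against C4-/-, and 11.5% for hC4A/A against hC4A/-. In 3 of 45 cases the libraries did not overlap, 2 of Mertk and 1 of Gas6. Elsewhere the share of genes without overlap was 1.41%, 1.4% and 3.75% for C4-/-, hC4A/- and hC4B/- against WT, and 0.97%, 0.741% and 4.26% for hC4A/-, hC4B/- and hC4A/A against C4-/-.

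In edgeR's test of any difference among the 5 genotypes, 15 of the 12680 genes passed (0.118%) and none of the 5 TAM genes did. C4b, whose counts did not follow the WT and C4-/- labels, was among those that passed (edgeR adjusted p = 0.032). For the TAM genes edgeR's adjusted p was 0.457 for Gas6, 0.509 for Tyro3, 0.655 for Axl, 0.89 for Mertk and 0.891 for Pros1. The spread between libraries was wide, with a biological coefficient of variation of 1.03 over all genes.

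The balance of the ligands varied with both genes. Per length, Pros1 made up a median of 74.6% of the Pros1 and Gas6 level, and more than 50% in 15 of 20 libraries. It was 70% to 92.1% in the libraries labelled WT, 44.3% to 96.9% in C4-/- and 77.2% to 91% in hC4A/-. In hC4B/- it was 45.2%, 40.7%, 25% and 73.3%, and in hC4A/A 98.1% and 56.7%. All 5 hC4A/- libraries lay above all 4 hC4B/- libraries, though the highest hC4B/- share and the lowest hC4A/- share, 77.2%, were close. The shares hold the same Gas6 counts as above, so this separation is not independent of that of Gas6. The hC4B/- shares of 40.7% and 25% are from broad libraries. The 4 broad libraries lay at 25% to 56.7% and the other 16 at 45.2% to 98.1%. These shares were not tested.

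**Figure D5:**
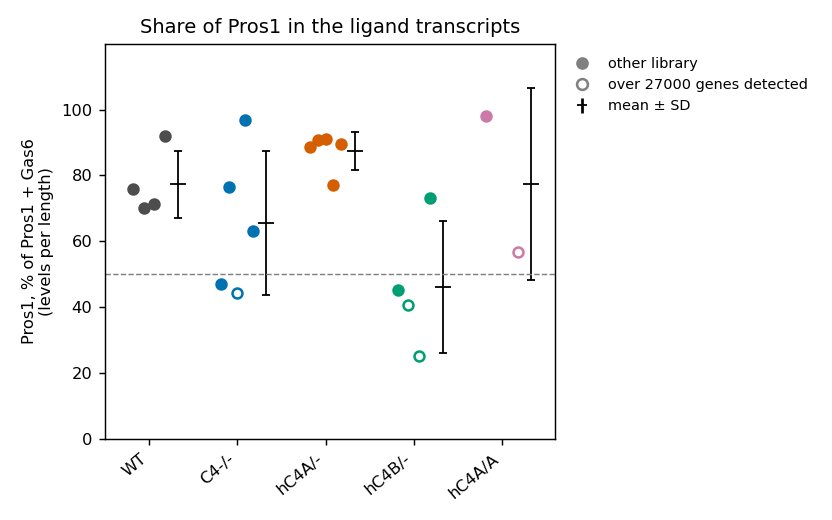
Pros1 as a percentage of the summed Pros1 and Gas6 level per length in each library by genotype label, with mean ± SD, broad libraries open and a dashed line at equal levels. The hC4A/- libraries lie at 77.2% to 91% and the hC4B/- libraries at 25% to 73.3%.

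The machinery around the receptors was described by 49 genes in 8 roles, of which 40 were tested. The 9 too low to test were Tub, Timd4, Havcr1, Stab2, Cd36, Nr1h3, Rara, Socs1 and Twist1. None of the 40 passed in any comparison, where 0% of all genes passed, nor in the test among the 5 genotypes, where 0.118% did. The median log2 fold change against WT was 0.18 for C4-/-, -0.31 for hC4A/-, -0.05 for hC4B/- and -0.20 for hC4A/A. Over all genes the medians were 0.33, -0.05, 0.18 and 0.18. In hC4A/- against hC4B/- the median of the 40 was -0.08, with 17 higher and 23 lower, and that of all genes was -0.14.

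Among the proteases that shed Mertk and Axl, Adam10 had the highest level, 641 CPM per kb. Its genotype means ran from 4086 ± 1944 CPM for WT and 4034 ± 2478 for C4-/- through 3206 ± 802 for hC4A/- to 1925 ± 2636 for hC4A/A and 1652 ± 1375 for hC4B/-. The broad libraries held 57.9 to 948 CPM of Adam10 and the other 16 held 1927 to 6959 CPM. Adam17, which also cleaves Mertk, spanned 36.3 to 71.4 CPM in broad libraries, far under its 534 to 1529 CPM elsewhere. Both sheddases were thus lower in every broad library, as were 7.05% of all genes tested, while 9.47%, Mertk among them, were higher. A link between the sheddases and Mertk was not tested.

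The enzymes that carboxylate Gas6 and protein S were low. Vkorc1, which recycles vitamin K, was highest of them at 2.89 CPM per kb. Ggcx, the carboxylase, was at 18.2 ± 14.8 CPM for hC4A/A, 3.99 ± 4.59 for C4-/-, 3.94 ± 0.636 for WT, 3.21 ± 3.72 for hC4B/- and 1.57 ± 1.22 for hC4A/-. It had the smallest unadjusted p of the list in hC4A/A against hC4A/- (edgeR adjusted p = 0.38). Of the other Mertk ligands, Lgals3 (galectin-3) led at 1.78 CPM per kb. Tulp1, a bridging ligand best known from the retina, did not exceed 0.712 CPM in WT and was at 0.967 and 13 CPM in hC4A/A (edgeR adjusted p = 0.558). In that comparison 11.2% of genes tested did not overlap, and the 13 CPM is from the broad hC4A/A library. Tulp1 was at 1.97 to 13 CPM in broad libraries (median 7.52) against 0 to 5.75 CPM elsewhere (median 0.384).

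Among other receptors of phosphatidylserine, Stab1 (stabilin-1) was highest at 64.3 CPM per kb, followed by Trem2 at 58 CPM per kb. Both exceeded Mertk in mean level over the 20 libraries. Opposite to Mertk, their medians were lower in broad libraries (401 and 186 CPM) than elsewhere (577 and 294 CPM), with overlap. Itgb5, a subunit of the integrin that binds the bridge Mfge8, reached 175 to 410 CPM in broad libraries against 45.7 to 148 CPM elsewhere, a split like that of Mertk. Adgrb1 (BAI1) was at most 0.813 CPM in WT and 1.38 CPM in hC4A/-, and reached 25.2 CPM in hC4B/-. It gave the smallest p of the list in hC4B/- against WT (edgeR adjusted p = 0.341), and its broad libraries, at 7.87 to 25.2 CPM, all exceeded the other 16, at 0 to 6.9 CPM. Itgb3 was at 2.92 ± 0.38 CPM in WT and 20.8 ± 21.1 CPM in C4-/- (edgeR adjusted p = 0.566). For phosphatidylserine exposure, Tmem30a, the partner subunit of lipid flippases, was highest at 15 CPM per kb.

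Maf, a macrophage transcription factor, led the regulators at 111 CPM per kb, and Pik3r1, a regulatory subunit of PI3 kinase, led the signalling genes at 41.4 CPM per kb. Pik3r1 was at 623 ± 236 CPM in WT and 157 ± 115 CPM in hC4B/-, and was at 41.5 to 95.7 CPM in the broad libraries against 227 to 945 CPM in the others. Plcg2, which acts downstream of Trem2, was at 18.5 to 31.7 CPM in WT and 22 to 200 CPM in hC4A/- (edgeR adjusted p = 0.613). Vav3, a guanine nucleotide exchange factor, rested on 1 count in WT and 21 in hC4B/-, 16 of them in 1 library. These groups overlap (edgeR adjusted p = 0.358), and Vav3 was at 1.31 to 10.9 CPM in broad libraries against 0 to 1.86 CPM elsewhere. In the interferon feedback arm, Ifnar2 led at 15 CPM per kb.

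Across the library classes, 6 of the 40 genes (15%) were lower in every broad library than in every other, namely Adam10, Adam17, Maf, Pik3r1, Crk and Dock1. Over all genes this share was 7.05%. Another 3 (7.5%), Itgb5, Adgrb1 and Rxra, were higher in every broad library, against 9.47% of all genes.

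The genes most like each TAM gene were ranked by Spearman correlation of log2 CPM over the 20 libraries, which share differences in depth and library class. For Mertk they were Frmd8 (0.91), Tnks1bp1 (0.87) and Igf1 (0.86), at 0.85, 0.77 and 0.77 over the 16 libraries that are not broad. For Gas6 they were Cyb561a3 (0.83), Mex3d (0.82) and Ebi3 (0.81), at 0.89, 0.79 and 0.89 over the 16. Pros1 was closest to Gm20045 (0.93), Cep57 (0.85) and Med7 (0.82). Axl was closest to Ric3 (0.89), Tenm4 (0.88) and Dennd6b (0.86), and Tyro3 to Gm42847 (0.96), Rnf165 (0.93) and Neb (0.92). With counts of 0 in many libraries, the values of Axl and Tyro3 largely follow which libraries had any count. Among the TAM genes themselves the correlation farthest from 0 was that of Axl and Pros1, at -0.73 over the 20 libraries and -0.68 over the 16.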

How the data were processed

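Per the labels' protocols, cDNA from 1000 sorted cells per mouse was made by template switching, amplified and prepared with a Nextera kit. The authors deposited whole-number read counts per gene. The submitters' processing notes name STAR, edgeR and GRCm38, without tool versions. Unstranded counts were used, without the shares of reads that were unmapped (14.8% to 42.1%), multimapping (13.2% to 28.9%), in no gene (21.8% to 42.1%) or ambiguous (0.897% to 5.86%). Symbols were matched for 54723 of 54838 genes. CPM are counts scaled to a TMM-adjusted library of 1000000, and levels per length divide by the merged exons of GENCODE vM21. edgeR 4.0.16 (R 4.3.3; TMM, filterByExpr, robust quasi-likelihood fit, 1 coefficient per genotype, 15 residual degrees of freedom) tested 9 contrasts and any difference among genotypes, with Benjamini-Hochberg adjustment over 12680 genes at 0.05. Alternatives were other scaling, DESeq2 1.42.0, voom in limma 3.58.1, no filter, a replicate block, no broad libraries and each library left out. The fit was checked on simulated data. Within genotypes, all 33 pairs of libraries differed beyond sampling noise (chi-square per degree of freedom 26.3 to 142). PCR reads carry no molecular identifiers, so intervals cover counting error only. Named pathway genes had the highest level per length of their role or the smallest unadjusted p of a comparison, including the 4 smallest in the test of any difference. A gene that this rule also names is not reported here. Adam17, Trem2, Itgb5 and the genes listed by library class were named after their values were seen. For likeness, the 3 highest Spearman correlations of log2 CPM (prior count 2) were taken. Members and lists were chosen with earlier results of these data known.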

Additional observations from a re-analysis of the deposited data

Results flagged for a closer look

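Within genotypes of 4 or 5 libraries, 20 sets of values of the 5 genes were screened for a library far from its group, of which chance flags about 1 in 20, and 2 stood out. Mertk was at 364 CPM in C4-/- replicate 3, a broad library, while the other 4 libraries labelled C4-/- held 76.5 to 152 CPM. Gas6 was at 25.2 CPM in hC4A/- replicate 4, which is not broad, while the other 4 hC4A/- libraries held 5.52 to 8.51 CPM. That library still lay below every hC4B/- library, and the log2 fold change of Gas6 in hC4A/- against hC4B/- was -2.70 without it.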

How the results depend on the processing

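None of the 5 TAM genes passed at an adjusted p of 0.05 in any comparison under any of the 26 alternatives, 6 other settings and 20 left-out libraries. Depth limits Axl and Tyro3, whose levels rest on few counts. The Gas6 log2 fold change in hC4A/- against hC4B/- kept its sign throughout, at -2.41 (DESeq2) to -1.76 (no filter) over the other settings and at -2.70 to -1.95 over the left-out libraries. RLE scaling moved the median of all genes in hC4B/- against WT from 0.18 to 0.53, and in hC4A/- against hC4B/- from -0.14 to -0.47. It put the mean of Mertk in hC4A/A at 231 CPM, below the 242 CPM of hC4B/-.

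The number of all genes passing, 0 in each contrast and 15 among the 5 genotypes with edgeR, depended on the setting, and the cause was not tested. Against WT, DESeq2 called 20 genes for C4-/-, 21 for hC4A/-, 53 for hC4B/- and 4 for hC4A/A, then 10, 3 and 1 for hC4A/-, hC4B/- and hC4A/A against C4-/-. It called 58 in hC4A/- against hC4B/-, 2 in hC4A/A against hC4A/- and 65 among the genotypes. With no filter the counts were 26, 65, 28 and 3 against WT, 53 and 16 for hC4A/- and hC4B/- against C4-/-, 36 in hC4A/- against hC4B/- and 697 among the genotypes. Voom called 1 for hC4A/- against WT, 1 for hC4A/- against C4-/-, 6 for hC4A/A against hC4A/- and 0 among the genotypes. Without the broad libraries, 1 gene passed for hC4A/- against WT and 2 among the genotypes, and RLE scaling gave 24 among the genotypes. With 1 library left out, 0 to 2 genes passed for hC4B/- against WT, 0 to 1 for hC4A/A against WT and 0 to 8 for hC4A/- against hC4B/-. Among the genotypes it was 0 (without hC4B/- replicate 3) to 34 (without hC4B/- replicate 4), with 2 without WT replicate 1, 8 without WT replicate 4 and 30 without hC4A/A replicate 2.

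Signs turned for small or widely spread log2 fold changes. With the broad libraries left out, Gas6 in C4-/- against WT was at -0.34, Mertk and Pros1 in hC4B/- against WT at -0.28 and 0.05, and Mertk in hC4A/- against C4-/- at 0.09. Mertk and Pros1 in hC4B/- against C4-/- were then at -0.36 and 0.70, and Mertk, Tyro3 and Pros1 in hC4A/- against hC4B/- at 0.46, 3.22 and -0.14. Voom gave -0.35 for Gas6 in C4-/- against WT, -0.05 for Mertk in hC4A/- against WT, and -0.44 and -0.26 for Pros1 in hC4A/A against WT and hC4A/-. No filter gave -0.34 for Gas6 in C4-/- against WT, and -0.13 and 0.08 for Mertk and Pros1 in hC4B/- against C4-/-. Pros1 in hC4B/- against C4-/- was at 0.20 with RLE scaling and with DESeq2, and RLE scaling put Gas6 in hC4A/A against hC4A/- at 0.02.

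Leaving out 1 library gave, against WT, -0.39 to 0.40 for Gas6 in C4-/-, -0.15 to 0.34 for Mertk and -0.25 to 0.02 for Pros1 in hC4A/-, and -2.14 to 1.16 for Pros1 in hC4A/A. Against C4-/- it gave -0.83 to 0.12 for Mertk in hC4A/-, -0.09 to 0.80 for Mertk and -0.49 to 0.47 for Pros1 in hC4B/-, and -0.02 to 0.79 for Mertk and -1.33 to 1.87 for Pros1 in hC4A/A. In hC4A/A against hC4A/- it gave -1.68 to 0.25 for Gas6 and -2.05 to 1.33 for Pros1. With 1 hC4A/A library left, that library is assumed to vary like the other groups.

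The same replicate numbers recur across genotypes. Deviations from the genotype means had a median correlation of 0.00833 in 33 same-numbered pairs (-0.301 to 0.697, over 0.1 in 5). In 124 pairs with different numbers the median was -0.00143 (-0.71 to 0.71, over 0.1 in 12). Such correlations cannot exclude a pairing of some libraries, because each deviation is taken from the mean of few libraries. With the replicate block, Gas6 in C4-/- against WT was at -0.17, and Mertk and Pros1 in hC4B/- against C4-/- at -0.10 and 0.13. Among the genotypes, 0 genes passed with the block, against 15 in the main fit.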
